A study of Mus musculus with 6 samples.

Results

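Replication-dependent histone genes encode the bulk histones H1, H2A, H2B, H3 and H4 that package newly copied DNA. They were studied here as regions of open chromatin in mouse lung fibroblasts, by ATAC-seq, where transposase insertions mark accessible DNA. A region belonged to the set when its deposited gene name began with Hist1h, Hist2h, Hist3h or Hist4h, or with the newer forms H2ac, H2bc, H3c or H4c and a digit, and when it lay within 100 kb of that gene's transcription start. In the comparison of 32 kPa with plastic, 79 of 64217 regions met this rule and named 51 genes. The lists of regions that differed from 0.2 kPa held 5 members among 2121 regions for 32 kPa and 0 among 2114 for plastic. The rule used names and positions only, and no region with a histone name was lost to the window, the most distant lying at -96150 bases, beside Hist1h2al.

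The fibroblasts came from lungs of Col1a1-GFP transgenic mice and were sorted as GFP-positive cells, so that the cells entering culture were those in which the type I collagen reporter was on. They were grown for 8 days, in medium with 10% serum, on PDMS (a silicone elastomer) of 0.2 kPa, on PDMS of 32 kPa, or on tissue-culture plastic. Every surface carried collagen I applied at 0.1 mg/mL, and the seeding density was 5000 cells per cm2 on each. Each culture gave 2 libraries of 50000 cells, read to 51 bp from both ends. The sources used here do not give the age or number of the mice, nor say if paired libraries derive from separate cultures. The deposited p-values therefore reflect library-to-library spread alone, and that spread may be technical. A level is the authors' mean over the libraries of a culture, on the log2 scale of normalised reads, and has no spread of its own in the tables. In such bulk samples, fewer cells with an open region and less opening per cell cannot be told apart.

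As a check of the labelled cell type, 8 of 9 fibroblast markers had a region within 1 kb of their start site, with Lum as the exception. The same held for 0 of 6 epithelial, 0 of 5 leukocyte, 2 of 5 endothelial (Tek and Kdr) and 1 of 6 pericyte, smooth muscle and mesothelial markers (Myh11). Some regions of other cell types' markers were higher on 32 kPa or on plastic than on 0.2 kPa in the authors' deposited table. Over 0.2 kPa, 32 kPa was higher at 3 of 5 regions of the pericyte, smooth muscle and mesothelial list that could be listed, namely 1 of Upk3b (3.82 to 5.39, FDR 0.00896) and 2 of Wt1 (4.71 to 6.14, FDR 0.0031, and 4.60 to 5.69, FDR 0.031), per the authors' deposited table. None of 3 epithelial or 7 endothelial regions was listed there. The fibroblast list had 3 of 14, at Col1a2 and Thy1, beside 12.5% of all regions at a level that could be listed. Plastic was higher at the start of Myh11 (4.33 to 5.46, FDR 0.0325) and at 1 region each of Wt1 (4.72 to 5.84, FDR 0.0179), Kdr (4.93 to 5.98, FDR 0.0167) and Krt8 (4.73 to 5.77, FDR 0.0284), per the authors' deposited table. Of regions that could be listed on plastic, 2 of 3 of the pericyte, smooth muscle and mesothelial list were listed. The same held for 1 of 6 endothelial and 1 of 3 epithelial regions. The fibroblast list had 4 of 15, at Col1a1 and Col1a2, beside 11.7% of all regions at such a level. The part of cells other than fibroblasts in the histone differences was not tested.

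Histone messages of this kind are made in S phase, when DNA is replicated, and end in a stem-loop in place of a poly(A) tail. NPAT, activated by cyclin E and CDK2, drives their transcription from nuclear bodies at the gene clusters, HINFP binds H4 promoters and OCT1 binds H2B promoters. SLBP and the U7 particle, which contains LSM10 and LSM11, form the 3' end. Many H2A and H2B genes stand head to head and share a short stretch of promoter, and the genes typically have no introns.

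The promoters below belong to 4 of the 5 genes with a region listed as higher on 32 kPa than on 0.2 kPa. The differences in accessibility at these regions are described next. For Hist1h3f, an H3 gene, no RefSeq promoter was available, so the H3 promoter printed for comparison has no listed counterpart. All 200 printed bases lie in the listed region for Hist1h2ac and Hist1h2bj, and 165 of 200 for Hist1h4d. For Hist1h4n 27 of 200 do, since its region lies mostly in the gene body, and both of its marked motifs fall outside that region. Each is taken from RefSeq on GRCm38.p6 (the mm10 build of the tables), runs 5' to 3' on the gene's strand and ends at the base before the start. Capitals mark matches on either strand to the octamer bound by OCT1 (ATTTGCAT), the CCAAT box (CCAAT), the TATA box (TATAAA) or the core of the HINFP site (GTCCGC).
Hist1h2ac (chr13:23683960-23684159, minus strand): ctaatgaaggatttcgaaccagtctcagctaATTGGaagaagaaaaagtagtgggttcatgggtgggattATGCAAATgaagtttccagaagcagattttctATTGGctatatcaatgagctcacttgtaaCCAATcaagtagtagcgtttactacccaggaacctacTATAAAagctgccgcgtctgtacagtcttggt
Hist1h2bj (chr13:22042998-22043197, plus strand): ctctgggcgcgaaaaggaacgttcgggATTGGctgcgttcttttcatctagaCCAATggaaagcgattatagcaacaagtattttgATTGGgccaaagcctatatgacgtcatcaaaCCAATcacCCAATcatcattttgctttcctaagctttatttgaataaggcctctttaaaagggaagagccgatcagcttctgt
Hist1h4d (chr13:23581368-23581567, plus strand): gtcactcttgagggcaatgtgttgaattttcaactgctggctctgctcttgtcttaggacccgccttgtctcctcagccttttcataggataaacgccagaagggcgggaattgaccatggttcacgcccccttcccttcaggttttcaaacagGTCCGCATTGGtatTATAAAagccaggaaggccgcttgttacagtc
Hist1h4n (chr13:21832198-21832397, minus strand): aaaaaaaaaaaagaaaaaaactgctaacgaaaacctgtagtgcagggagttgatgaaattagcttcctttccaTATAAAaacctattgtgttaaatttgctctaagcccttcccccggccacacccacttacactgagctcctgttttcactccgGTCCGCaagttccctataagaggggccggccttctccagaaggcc
For comparison, the unlisted start-site regions of the highest level on 32 kPa in these classes were those of Hist1h2ak, Hist1h2bk, Hist1h3g and Hist1h4f. The sequences of Hist1h2ak and Hist1h2bk stop where the divergent partner gene begins.
Hist1h2ak (chr13:21753913-21754075, minus strand): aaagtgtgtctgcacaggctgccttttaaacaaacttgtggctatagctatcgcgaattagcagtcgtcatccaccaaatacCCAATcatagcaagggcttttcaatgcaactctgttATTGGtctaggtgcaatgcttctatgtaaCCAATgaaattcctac
Hist1h2bk (chr13:22035644-22035820, plus strand): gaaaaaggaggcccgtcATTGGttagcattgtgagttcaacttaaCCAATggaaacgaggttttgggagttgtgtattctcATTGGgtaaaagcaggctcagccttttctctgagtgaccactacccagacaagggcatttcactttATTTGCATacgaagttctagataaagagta
Hist1h3g (chr13:23535218-23535417, plus strand): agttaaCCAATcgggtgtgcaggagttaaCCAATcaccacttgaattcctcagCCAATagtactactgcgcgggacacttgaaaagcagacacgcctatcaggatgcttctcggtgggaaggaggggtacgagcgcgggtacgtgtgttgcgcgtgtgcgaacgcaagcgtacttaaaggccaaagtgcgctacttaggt
Hist1h4f (chr13:23551669-23551868, minus strand): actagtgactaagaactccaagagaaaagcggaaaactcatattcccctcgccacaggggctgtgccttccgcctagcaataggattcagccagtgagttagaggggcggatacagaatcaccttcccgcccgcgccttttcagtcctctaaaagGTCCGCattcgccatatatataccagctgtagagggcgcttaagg
Hist1h2ac carried the octamer at -130, read on the opposite strand, and TATAAA at -32, counting the base before the start as -1. Hist1h4d carried the HINFP core at -46, inside its listed region, and the unlisted Hist1h4f had it at -45. Hist1h4n had the core at -45, outside its listed region. The octamer was likewise present in an unlisted promoter, that of Hist1h2bk, at -30.

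Across the whole family, 62 of the 71 RefSeq genes that fit the name rule had a promoter in the RefSeq table, giving 63 entries of 300 bases (250 before to 50 after the start). Each motif was searched on its own on both strands, so that a base may count toward several motifs. CCAAT was present in all 6 H1, all 18 H2A, all 17 H2B and all 10 H3 promoters, but in 3 of 12 H4 promoters (25%), beside 37.4% of all 32851 promoters. GTCCGC was present in 9 of 12 H4 promoters (75%), with a median position of -45, and in 9.44% of all promoters. It was found in 38.9% of H2A, 17.6% of H2B, 10% of H3 and 0% of H1 promoters. The octamer was present in 7 of 18 H2A promoters (38.9%) and 7 of 17 H2B promoters (41.2%), against 1.74% of all promoters, and in none of the 6 H1, 10 H3 and 12 H4 promoters. Divergent H2A and H2B genes share promoter bases, so the counts for these classes are not independent. TATAAA was present in 35 of 63 histone promoters (55.6%) and in 13.6% of all promoters. A match is a description of these letters and not a shown binding site.

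**Figure D1:**
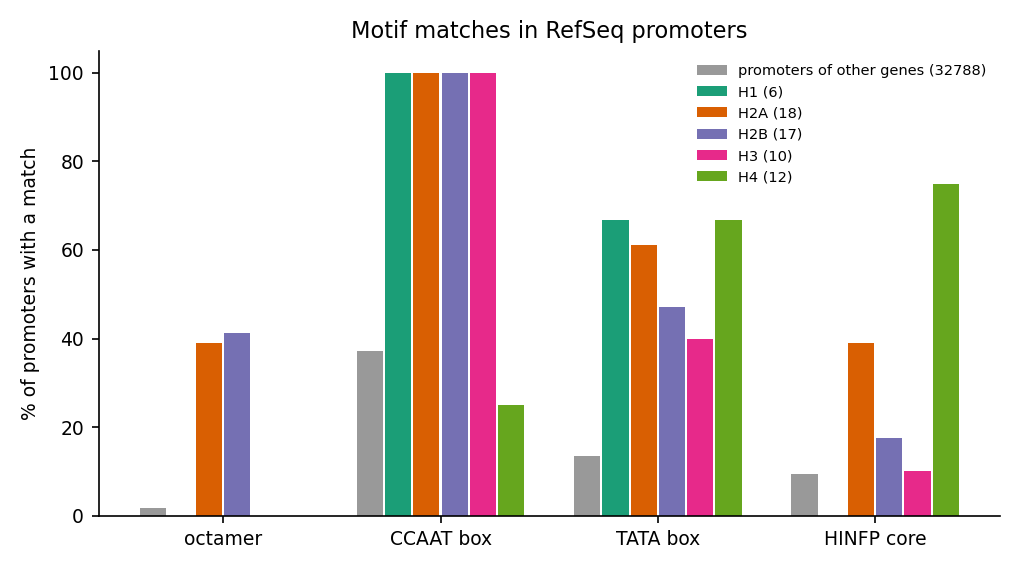
Percentage of RefSeq promoters of 300 bases with at least 1 match to each motif, for the promoters of other genes and for each histone class, with the number of promoters in brackets. The HINFP core stands highest in H4 (75%), CCAAT reaches 100% in the other classes, and the octamer is limited to H2A (38.9%) and H2B (41.2%) among the histone classes.

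The comparison of 0.2 kPa with 32 kPa asks which regions differ between a soft and a stiff surface of the same polymer. Of the histone members, 5 were more accessible on 32 kPa in the authors' deposited table, which lists regions with a log2 fold of at least 1 and an FDR of at most 0.05, all of them higher on 32 kPa. They lay at Hist1h2ac, Hist1h2bj, Hist1h4d, Hist1h4n and Hist1h3f, all on chromosome 13 in the Hist1 cluster, and they cover H2A, H2B, H3 and H4 but no H1 gene. The table holds 0.2 kPa levels for listed regions alone, so the change at the other members was not analysed here, and an unlisted region is not shown to be unchanged.

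Hist1h2ac, which encodes an H2A, shares its region (chr13:23683836-23684283, centred at -100 from the start) with the divergent H2B gene Hist1h2bc. Its level was 5.65 on 0.2 kPa and 6.82 on 32 kPa, a log2 fold of 1.17 (2.25-fold) with p = 3.19e-05 and FDR 0.00262 in the authors' deposited table. On plastic its level was 6.26, between the other cultures. This was the most accessible of all 79 member regions on 32 kPa by its uncorrected level.

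Hist1h2bj, which encodes an H2B and shares its region (chr13:22042949-22043305, at -103) with the H2A gene Hist1h2ag, stood at 4.89 on 0.2 kPa, 5.94 on 32 kPa and 5.54 on plastic. The authors' deposited table gave a log2 fold of 1.05 on 32 kPa over 0.2 kPa (FDR 0.0235). Both listed pair regions therefore cover an H2A and an H2B start at once, and the reads cannot be assigned to either gene.

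Of the H4 genes, Hist1h4d (chr13:23581403-23581733, at -34) stood at 4.47 on 0.2 kPa, 5.62 on 32 kPa and 5.12 on plastic. Its log2 fold on 32 kPa over 0.2 kPa was 1.16 in the authors' deposited table (FDR 0.0261). Hist1h4n (chr13:21832076-21832224, at 8) stood at 3.84 on 0.2 kPa, 5.15 on 32 kPa and 4.46 on plastic. It had the largest fold of the 5, 1.30 on the log2 scale (2.46-fold), in the authors' deposited table (FDR 0.0334). Of the 51-base words in the Hist1h4n promoter, 94% also occur in another histone promoter, so its reads may be shared with a copy. The sources used here do not say how reads with several matches were handled.

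Hist1h3f encodes an H3, and its listed region (chr13:23544262-23544593) lay at 375, downstream of the start. It stood at 4.54 on 0.2 kPa, 5.56 on 32 kPa and 5.11 on plastic, with a log2 fold of 1.02 on 32 kPa over 0.2 kPa in the authors' deposited table (FDR 0.0455). With an FDR of at most 0.01 in place of 0.05, Hist1h2ac alone would be listed.

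**Figure D2:**
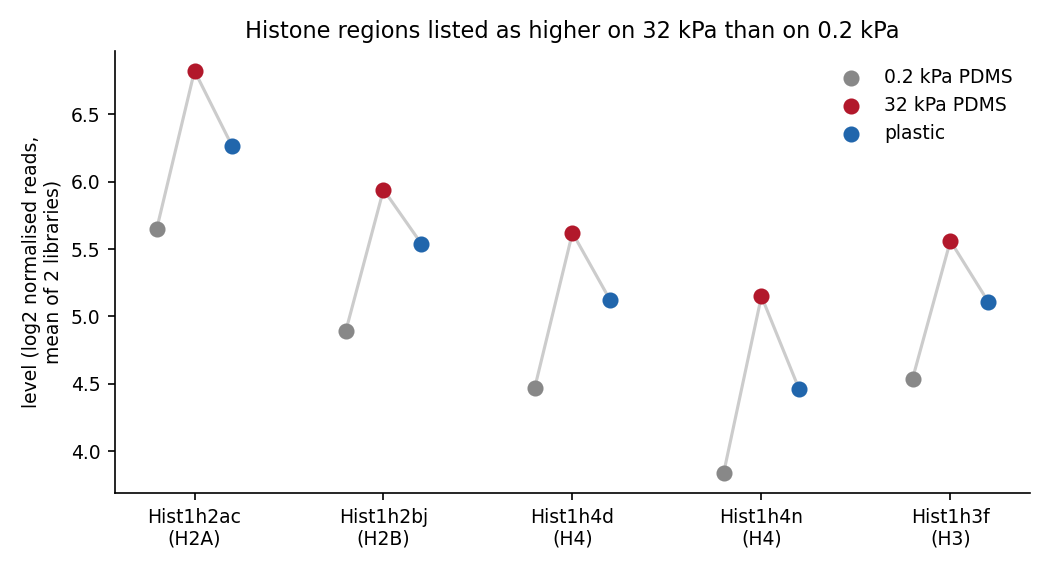
Level (log2 normalised reads, the authors' mean of 2 libraries, 1 point per culture with no error available) of the 5 listed histone regions on 0.2 kPa PDMS, 32 kPa PDMS and plastic. In each gene the level is lowest on 0.2 kPa, highest on 32 kPa and intermediate on plastic, as at Hist1h2ac with 5.65, 6.82 and 6.26. The regions were chosen for being higher on 32 kPa than on 0.2 kPa. Of all 2117 matched regions listed on 32 kPa, 85.0% were also higher on 32 kPa than on plastic.

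Above a common floor of level, the histone members were listed about as often as all regions. Among regions of the 32 kPa and plastic table at or above 4.97 on 32 kPa, the lowest level of any listed region, 12.5% overlapped a listed region (2122 of 17026), beside 5 of 38 members (13.2%). Among regions within 1 kb of a start site, called start-site regions from here on, 12.7% were listed, beside 5 of 34 members (14.7%). The floor does not match levels, and listing of other genes' regions rose with level. At a mean level over 32 kPa and plastic of 4 to 5, 16 of 4245 start-site regions of other genes were listed, beside 1 of 21 members. At 5 to 6 the counts were 371 of 4300 and 3 of 23. At 6 to 7 they were 475 of 2878 and 1 of 5. These differences rest on few members and were not tested. The folds were ordinary, with a median of 1.16 for the 5 members and 1.12 for all 2121 listed regions, which reached 2.11. Their median level on 0.2 kPa was 4.54, beside 4.83 for all listed regions.

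The comparison of 0.2 kPa with plastic listed 0 of the 33 members at or above 4.94 on plastic, where 11.7% of all such regions were listed. Of start-site regions at that level it listed 0 of 28 members, beside 10.6% of all. The authors' deposited table gives only regions past its thresholds, so no fold, p or other tool's count can be given for members in this comparison. Both comparisons use the same 0.2 kPa libraries, and whether the response on 32 kPa differs from that on plastic was not tested between them.

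At the 5 regions listed on 32 kPa, plastic exceeded 0.2 kPa by 0.57 (Hist1h3f), 0.61 (Hist1h2ac), 0.62 (Hist1h4n) and 0.65 (Hist1h2bj and Hist1h4d) on the log2 scale. At all 2117 listed regions with a matched region, the same difference had a median of 0.95 and a lower quartile of 0.80. Plastic lay below 32 kPa by -0.38 to -0.71 at the 5 members in the authors' deposited table, where the matched listed regions had a median of -0.20 and a lower quartile of -0.34. All 5 members were thus below the lower quartile of both differences. Being higher on 32 kPa than on plastic was itself common, at 85.0% of the 2117 matched regions. The 32 kPa and 0.2 kPa values that chose these regions enter both differences, so this is a description without a test.

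The comparison of 32 kPa with plastic asks what differs between surfaces that are both stiff. No histone region differed by the authors' FDR of at most 0.05 in the authors' deposited table, nor did any of the 64217 regions (0%), every FDR being 1. At an unadjusted p of at most 0.05, 1 of 79 members was higher on 32 kPa (1.27%, beside 0.195% of all regions) and 0 were higher on plastic (beside 0.382%). That member was Hist1h2ac, with a log2 difference of -0.56 on plastic relative to 32 kPa and p = 0.0395 in the authors' deposited table (FDR 1).

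Below that threshold the start-site regions of histone genes leaned toward 32 kPa. Of 57, 37 were higher on 32 kPa, 17 on plastic and 3 equal, with a median log2 difference (plastic minus 32 kPa) of -0.10 and quartiles of -0.28 and 0.03. The 15211 start-site regions of other genes had a median of 0.00 and quartiles of -0.17 and 0.20, with 49.6% higher on 32 kPa. The 22 member regions away from start sites did not share the lean, with a median of 0.125, beside 0.08 for other genes' regions away from start sites. All 79 together had a median of -0.07.

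Split by mean level, the lean was seen in the middle of the range. Among start-site regions with a mean level of 4 to 5, the median difference was -0.12 for 21 members and 0.05 for other genes, and at 5 to 6 it was -0.12 for 23 members and 0.00 for other genes. At 6 to 7 the values were -0.05 for 5 members and -0.05 for other genes, and at 3 to 4 they were 0.085 for 8 members and 0.10. Regions of other genes inside the Hist1 blocks numbered 18, given to Mir1983, Zfp184, Pom121l2, Prss16 and Slc17a4, and 17 of them lay in the block at chr13:21715711-22043658. Their median was 0.14, with 5 higher on 32 kPa and 13 on plastic. None was listed, but only 2 of the 18 were at a level that could be listed on 32 kPa and 3 on plastic. Of all regions at such levels, 12.5% were listed on 32 kPa and 11.7% on plastic. Of the 18, 14 lay away from start sites, where other genes had a median of 0.08 and histone members 0.125.

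**Figure D3:**
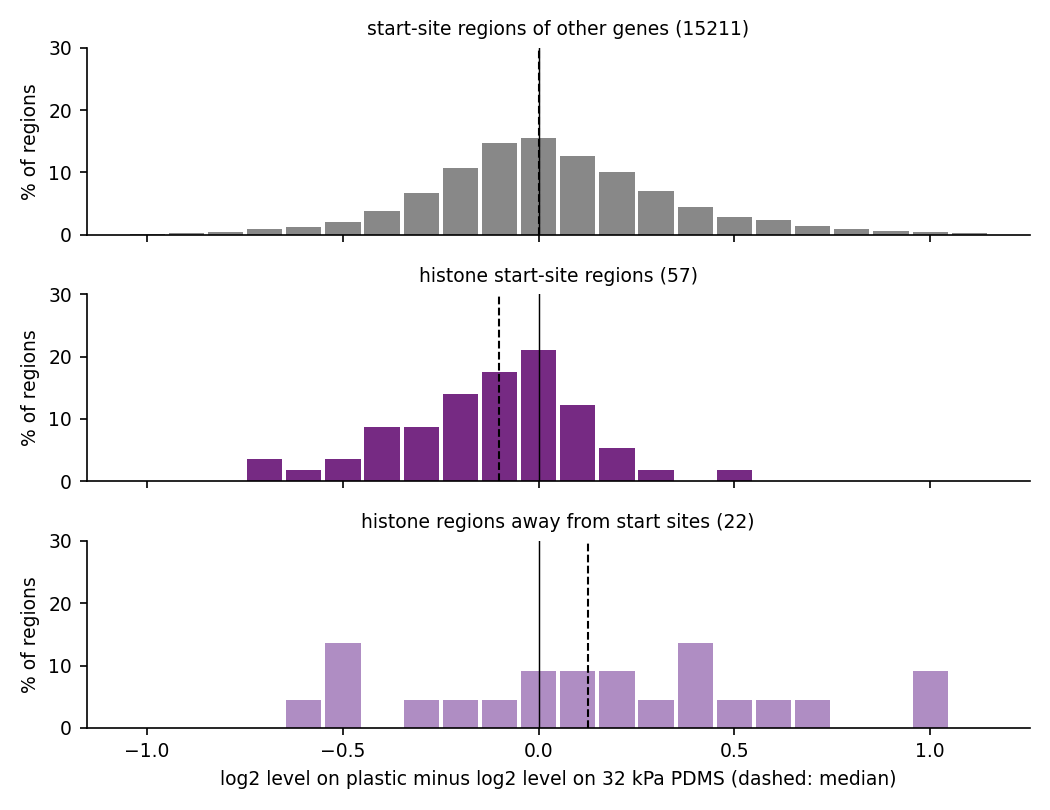
Percentage of regions in bins of the log2 level on plastic minus that on 32 kPa, for start-site regions of other genes, histone start-site regions and histone regions away from start sites (numbers in brackets, dashed line at the median, bins from -1.05 to 1.15). The histone start-site regions are centred at -0.10, other genes' at 0.00 and the histone regions away from start sites at 0.125.

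By class, the 5 H1 start-site regions were all higher on 32 kPa, with a median of -0.10 and a range of -0.19 to -0.01. None of the 5 had an unadjusted p below 0.718 in the authors' deposited table. H1 links nucleosomes, and these regions belonged to Hist1h1a, Hist1h1c, Hist1h1d and Hist1h1e. The region with -0.01, at 983 from Hist1h1c, was annotated as transcription end. Of all 9 H1 member regions, 7 were higher on 32 kPa. The 2 higher on plastic lay beyond 1 kb, at 1195 from Hist1h1d (0.35) and at 9104 from Hist1h1a (0.50). The 13 H2A regions had a median of -0.01, the 11 H2B regions -0.19, the 12 H3 regions -0.16 and the 16 H4 regions -0.105. A region shared by a divergent pair was classed by its deposited name alone, though it covers an H2A and an H2B start. Without shared regions the median was 0.05 for 6 H2A regions, with 1 higher on 32 kPa and 5 on plastic. For 6 H2B regions it was -0.235, with 4 and 2. By cluster, the 43 start-site regions of Hist1 on chromosome 13 had a median of -0.10, with 30 higher on 32 kPa and 10 on plastic. The 9 of Hist2 on chromosome 3 had a median of 0.07, with 4 and 5. No class or cluster held a region past the FDR threshold.

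The largest differences toward 32 kPa were at Hist1h4n (-0.71), Hist1h3h (-0.70, from 3.99 to 3.30), a region at 6807 from Hist1h2ah (-0.64), Hist1h2ac (-0.56), and equally a region at 1156 from Hist1h1b and the Hist4h4 promoter (both -0.55) in the authors' deposited table. The largest toward plastic all lay away from start sites. They were regions given to Hist2h2be (1.01, from 2.43 to 3.44), Hist1h2br (0.99, from 2.63 to 3.61), Hist1h2ac (0.68, at 23804), Hist1h2ba (0.59) and Hist1h1a (0.50). The first pair of these had the lowest 32 kPa levels of all 79 members.

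Where a region was present, histone start sites were about as open as those of other genes. To compare genes, levels were set per kb of region by subtracting log2 of the region's length in kb. On 32 kPa the 57 start-site regions had a median of 7.25 per kb and on plastic 7.11, beside 7.17 on 32 kPa and 7.20 on plastic for other genes. The median histone region stood at percentile 54.9 of start-site regions for its level per kb on 32 kPa. Before this correction the medians were 5.12 on 32 kPa (range 3.15 to 6.82) and 4.91 on plastic (range 3.28 to 6.26).

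Regions shared by a divergent pair were longer. The 12 shared regions had a median length of 352 bases and a median level of 7.30 per kb on 32 kPa and 7.21 on plastic. The 45 others had a median length of 185 bases and medians of 7.23 and 7.06 per kb. These differences in level were not tested. Gaps between the paired starts ran from 164 to 249 bases, and the 12 pairs each joined an H2A with an H2B. In 3 of them RefSeq calls a partner a pseudogene: H2ac5-ps beside Hist1h2bb, Hist1h2aj beside Hist1h2bm and Hist3h2bb beside Hist3h2a.

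Per kb on 32 kPa, the median was 7.31 for H1, 7.12 for H2A, 7.49 for H2B, 7.21 for H3 and 7.30 for H4, all within the quartiles of other genes, 6.77 and 7.65. Without regions shared by a divergent pair, which are classed by deposited name alone, the 32 kPa median was 6.94 for H2A and 7.26 for H2B. On plastic the medians of the full classes ran from 6.94 (H3) to 7.28 (H1). The densest start-site regions were Hist1h3g, an H3 gene, at 8.20 per kb on 32 kPa and 7.75 on plastic, Hist1h2ac at 8.03 and 7.47, and Hist1h2bk, an H2B gene, at 8.03 and 7.78. They were followed by Hist1h4n (7.82 and 7.12), Hist1h4h at 718 (7.78 and 7.67), Hist1h2bm (7.74 and 7.76), Hist1h1e (7.69 and 7.59) and Hist1h2be at -589 (7.67 and 7.33). Then came Hist1h3i (7.64 and 7.31) and Hist1h2bh (7.61 and 7.29). Of these, the Hist1h4h region at 718 was annotated as transcription end and lay past the end of the gene. With no spread per culture, neighbours in this order cannot be separated.

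At the other end stood Hist1h2al, a transcribed pseudogene in RefSeq, far from the cluster on the same chromosome and named by 5 of the 79 regions, at 5.95 per kb on 32 kPa. Above it were Hist1h3e (6.50), Hist1h2bm at 429 (6.56), Hist1h4j at -750 (6.58) and Hist2h4 at -44 (6.67). The Hist1h2bm region at 429 was annotated as transcription end. By level, the strongest start-site region of each cluster was Hist1h2ac in Hist1, Hist2h2bb in Hist2 (5.52 on 32 kPa and 5.33 on plastic), Hist3h2a at 431 in Hist3 (5.51 and 5.54) and Hist4h4 in Hist4 (5.54 and 4.99).

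**Figure D4:**
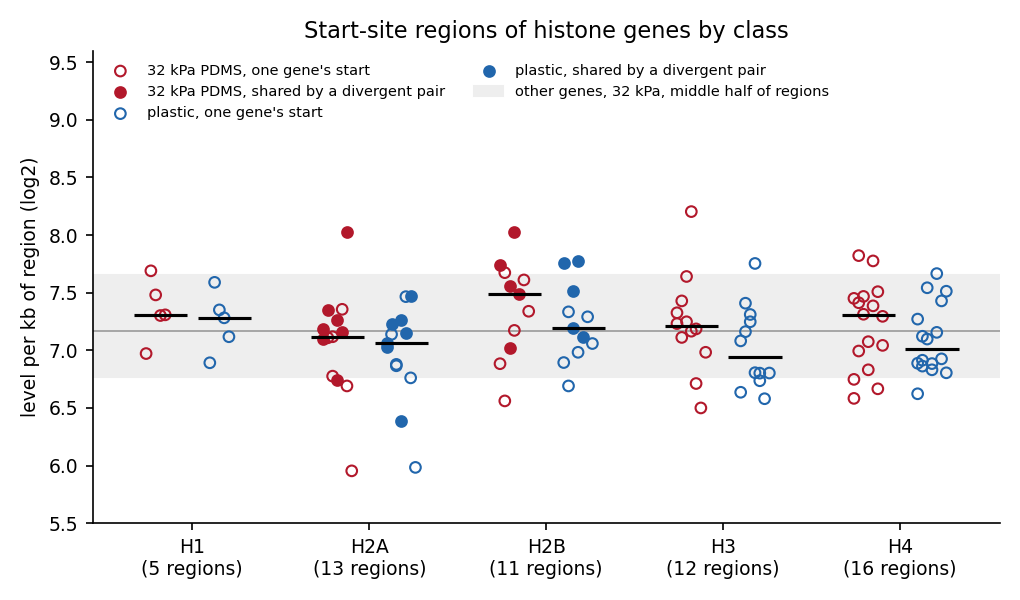
Level per kb of region (log2) of the 57 histone start-site regions by class on 32 kPa PDMS and plastic, with filled points for regions shared by a divergent pair and bars at class medians. The grey band spans the quartiles of other genes' start-site regions on 32 kPa (6.77 to 7.65), and each class median on 32 kPa lies inside it, from 7.12 (H2A) to 7.49 (H2B). A shared region covers an H2A and an H2B start and is placed by its deposited name alone.

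Not every histone promoter held a region. By position, the RefSeq promoter of 47 of the 62 genes with a promoter in the table was overlapped by a region, whichever gene that region was named for. The same share over all promoters was not computed, so whether 47 of 62 is high or low was not tested. The 15 without were Hist2h3c1, Hist3h2ba, Hist1h4j, Hist1h4k, Hist1h1b, Hist1h2bq, Hist1h2ao, Hist1h4m, Hist1h2ap, Hist1h2br, Hist1h1t, Hist1h3c, Hist1h2ab, Hist1h2ba and Hist1h2aa. The region named Hist2h3c1 stands at the RefSeq start of Hist2h3c2, a near-identical copy, and Hist2h2aa1 and Hist2h2aa2 are exchanged in the same way. Hist1h1t, Hist1h2ba and Hist1h2aa are known as testis forms. Of the 15 promoters without a region, 6 shared over 50% of their 51-base words with another histone promoter, as did 4 of the 47 with a region. The part of these shared words in the missing regions was not tested.

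Histone members were placed differently from the rest of the table. Of the 79, 49 were annotated by the authors as promoter (62.0%, beside 19.6% of all regions), 10 as transcription end (12.7%, beside 1.22%) and 19 as intergenic (24.1%, beside 38.3%), and 1 lay in an exon. None of the 79 was intronic, beside 37.2% of all regions. Most histone genes are short, though RefSeq gives some a longer span, as for Hist1h2be (chr13:23583670-23621124). Of the 10 end regions, 7 also lay within 1 kb of a start site.

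**Figure D5:**
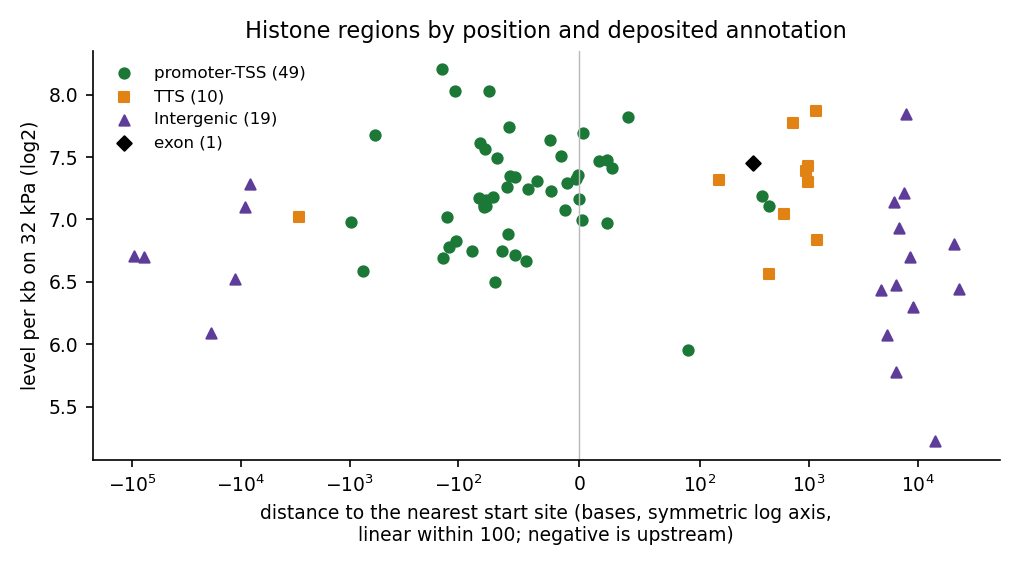
Level per kb on 32 kPa (log2) of the 79 histone regions against the distance to the nearest start site (bases, symmetric log axis), with marks for the deposited annotation. Promoter regions crowd around the start, transcription-end regions lie mostly downstream, and the intergenic regions reach to -96150.

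The partners of histone expression were described from lists of genes. Of 18 genes for histone transcription and 3' end formation, 16 had a start-site region, and 3 of 19 regions at a level that could be listed were listed on 32 kPa, beside 12.5% of all regions. Ccne1, which encodes cyclin E1, stood at 5.93 on 0.2 kPa and rose to 7.08 on 32 kPa, with a log2 fold of 1.15 and FDR 0.00281 in the authors' deposited table. Lsm10, of the U7 particle, rose from 5.31 to 6.33 (FDR 0.017, log2 fold 1.02), and Cstf2t, a cleavage factor, from 5.85 to 6.86 (FDR 0.00555, log2 fold 1.01), per the authors' deposited table. For plastic, where 11.7% of all regions were listed, the list held 1 of 21, in an intron of Zfp473, which encodes a U7 partner, rising from 4.74 to 5.87 (FDR 0.0166, log2 fold 1.12) per the authors' deposited table. Npat was the most open of the list at 8.37 per kb on 32 kPa, with levels of 7.40 on 32 kPa and 7.44 on plastic.

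All 11 genes for replication-independent histones, whose making is not limited to S phase, had a start-site region. Of 9 regions that could be listed, 2 were listed on 32 kPa, beside 12.5% of all regions. H2afz, the gene of H2A.Z, rose from 6.21 on 0.2 kPa to 7.24 on 32 kPa (log2 fold 1.03, FDR 0.00281) in the authors' deposited table. H2afj, a variant H2A gene beside Hist4h4 on chromosome 6, rose from 5.72 to 6.82 (FDR 0.00371, log2 fold 1.10) per the authors' deposited table, and was the most open of its list at 8.56 per kb on 32 kPa. Of 15 histone chaperone genes, all had a start-site region, and 2 of 13 regions that could be listed were listed on 32 kPa, beside the same 12.5%. Daxx, an H3.3 chaperone, rose from 6.22 to 7.23 (FDR 0.00528, log2 fold 1.01), and Rbbp4, a subunit of the CAF-1 assembly factor, from 5.41 to 6.41 (FDR 0.0219, log2 fold 1), per the authors' deposited table. Asf1b, another H3-H4 chaperone, was the most open of that list at 8.62 per kb. On plastic, 0 of 9 regions of the replication-independent histones and 0 of 13 of the chaperones that could be listed were listed, beside 11.7% of all regions.

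Between 32 kPa and plastic, no region of these lists passed the FDR of 0.05. The median log2 difference (plastic minus 32 kPa) of start-site regions was -0.11 over 23 regions of the transcription and 3' end list, with 15 higher on 32 kPa and 8 on plastic. It was 0.06 over 14 regions of the replication-independent histones and 0.00 over 16 of the chaperones, beside 0.00 for all start-site regions.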

How the data were processed

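ATAC-seq signal was compared between 3 cultures with 2 libraries each, grouped by the culture in their labels. Alignment and peak tools named in the submitters' processing notes are BWA, Picard, MACS2 and DiffBind (no versions), with mm10 as the build. Read shifting, peak merging, library scaling and the handling of reads with several matches are not given in the sources used here. Per the file headers, the 3 deposited tables give each region's level as a log2 mean of normalised reads per culture and a log2 fold, with the authors' p-value and FDR, and a nearest gene, distance and annotation in the layout of HOMER. Depth per library is unknown, so no interval is given.

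In the tables of 0.2 kPa the sides are called Control and Treat. Control was read as the stiffer culture, because its level equalled the named 32 kPa level at 643 shared intervals and lay 0.01 to 0.02 from the plastic level at 653. In the comparison of 32 kPa with plastic, a positive difference means higher on plastic. A repeated header row (1) was dropped, and 0 columns of other studies were present.

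Members were found by name and distance. Regions of different tables were matched by at least 50% of both lengths. Medians and counts were computed with Python 3.11.15, pandas 2.3.3 and numpy 2.4.6, and figures with matplotlib 3.10.9. No further test was run, since the tables hold 1 mean per culture and regions are not replicates. Matching, counts and motif search were tested on simulated data. The members and lists were chosen with earlier results of these data known. Named were listed or called members, the strongest per cluster and class, the 10 highest and 5 lowest start-site regions on 32 kPa (per kb, since levels of different genes need a length), the extremes of the difference between 32 kPa and plastic, and, of each list, the listed genes and the strongest. Alternatives were the distance window, the FDR, the level filter, the centring, the promoter definition, the matching and 1 region per gene. Leaving out Hist1h2al was chosen after seeing the data.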

Additional observations from a re-analysis of the deposited data

How the results depend on the processing

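The lean of the histone regions toward 32 kPa kept its sign under every alternative run: the median difference (plastic minus 32 kPa) of -0.07 ranged from -0.07 to -0.12 with windows of 10 kb and 1 kb, with centring on all or on start-site regions, with 1 region per gene, with regions at or above the median level, and without Hist1h2al. These runs reuse most of the same regions. Among the parts described above, the Hist1 start-site regions leaned the same way (-0.10). Regions away from start sites (0.125) and the Hist2 start-site regions (0.07) did not. The count of members that differed between 32 kPa and plastic was 0 by FDR and 1 at an unadjusted p of 0.05. The count listed on 32 kPa over 0.2 kPa fell from 5 to 1 at an FDR of 0.01, and the count listed on plastic was 0 in each setting. The median start-site level on 32 kPa, 5.12, was 5.34 by the deposited annotation, 5.25 within 500 bases and 7.25 per kb, and on plastic, 4.91, it was 5.11 by the annotation and 7.11 per kb. These shifts follow from fewer regions or another unit. No paired analysis was possible because the tables hold 1 mean per culture, and for the same reason no library could be left out.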

Other observations

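The authors' annotation placed 10 member regions at transcription ends. They had a median of 7.31 per kb on 32 kPa and 7.30 on plastic, beside 6.81 and 6.91 for the 773 transcription-end regions of other genes. Median region lengths were 155.5 and 159 bases, and the difference in level was not tested. Of the 10, 7 lay within 1 kb of a start site, and that given to Hist1h4c lay upstream of its gene, at -2891, so not all of them mark the end of the named gene. The end regions of H1 genes included 1 at Hist1h1c, at 983, with a level of 6.03 on 32 kPa and 6.01 on plastic, and 1 at Hist1h1b, at 1156, with 5.65 and 5.10. Hist1h1b had no start-site region of its own. A region at 7884 from Hist1h2bj was among the most open members away from start sites, at 6.26 on 32 kPa and 6.32 on plastic.

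Values under the names Hist2h2aa1, Hist2h2aa2, Hist2h3c1 and Hist2h3c2 are uncertain, since the deposited names and the RefSeq starts of these near-identical copies are exchanged.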
